A study of Mus musculus with 16 samples.

Results

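MEF-1 clonal lines 1, 4 and 5 were 3 of the 7 clonal lines grown from the MEF-1 culture, and they were chosen by their read coverage of chromosome 18, which was far below that of MEF-1 clonal lines 2, 3, 6 and 7. Relative coverage is the mean coverage of a chromosome over that of the median autosome in the same library, expressed so that the middle MEF-2 clonal line has 1. It was 0.541 in line 1, 0.535 in line 4 and 0.543 in line 5. The other 4 lines had 0.981 (line 2), 0.925 (line 3), 0.960 (line 6) and 1.00 (line 7), so the nearest values on either side of the choice were 0.543 and 0.925. The MEF-1 parental library lay between them with 0.744. These values are the basis of the choice and were not tested. Methylation was compared at CpGs of other chromosomes, which the choice did not use. Lines 1, 4 and 5 are called the 3 lines below, and lines 2, 3, 6 and 7 the 4 lines.

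Immortalised mouse embryonic fibroblasts (MEFs) are connective tissue cells of the embryo that have been passaged through crisis until they divide without limit. The cells came from C57BL/6J embryos at embryonic day 13.5. The MEF-1 parental line was a mixed culture from 1 embryo, whereas each MEF-1 clonal line was expanded from a single sorted cell of that culture, with no gene changed and no treatment in any of the 8 MEF-1 libraries (of 16 in the series). Each line was sequenced once after target capture and bisulfite conversion (tcBS-seq), so a clonal line is the replicate here, and the p-values take the lines as independent.

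DNA methylation of mammals is placed mainly on the cytosine of CpG dinucleotides. Maintenance by DNMT1 copies it to the new strand after replication, DNMT3A and DNMT3B add it to unmethylated sites, and TET enzymes start its removal. A diploid cell has a pair of copies of each autosomal CpG, so a clonal line that kept the state of its founder cell would show a level near 0, 50 or 100%, depending on how many copies carried the mark. At the control regions of imprinted genes 1 parental allele is methylated and the other is not.

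At a few places, neighbouring CpGs at which the levels of the 3 lines lay apart from those of the 4 lines formed short runs. Of these runs, 4, chosen after their values were seen, are printed here to show where the CpGs lie. The sequences are from the GRCm38 reference (mm10), on the forward strand. Capitals mark the CpGs at which all 3 lines lay on the same side of all 4 lines with at least 20 points between the set means. The first lies in a coding exon of Nr2f2 (chr7:70357814-70358081, 13 of its 18 CpGs in capitals), the second in an intron of Josd1 (chr15:79684066-79684253, 8 of 8 CpGs), the third in the promoter of Mkrn3 (chr7:62420220-62420287, 6 of 6 CpGs) and the fourth between genes, 42926 bp from the start of Tfpi (chr2:84519701-84519900, 5 of 5 CpGs).
Nr2f2: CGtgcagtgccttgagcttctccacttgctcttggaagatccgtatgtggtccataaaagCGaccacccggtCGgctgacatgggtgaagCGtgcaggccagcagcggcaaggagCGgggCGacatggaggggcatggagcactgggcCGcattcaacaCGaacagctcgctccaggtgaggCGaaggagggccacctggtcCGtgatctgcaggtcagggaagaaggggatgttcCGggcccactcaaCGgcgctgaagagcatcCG
Josd1: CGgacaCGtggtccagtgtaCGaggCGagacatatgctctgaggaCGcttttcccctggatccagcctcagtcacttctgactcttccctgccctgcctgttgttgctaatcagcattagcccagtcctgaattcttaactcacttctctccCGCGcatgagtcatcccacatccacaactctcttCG
Mkrn3: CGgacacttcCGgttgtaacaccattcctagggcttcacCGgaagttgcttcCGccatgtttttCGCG
Tfpi: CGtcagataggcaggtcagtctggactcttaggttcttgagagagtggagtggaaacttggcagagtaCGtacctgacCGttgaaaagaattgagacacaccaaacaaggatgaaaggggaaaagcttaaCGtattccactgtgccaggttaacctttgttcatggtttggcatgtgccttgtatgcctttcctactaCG

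The comparison used 1203687 CpGs on 16 chromosomes, each with at least 10 reads in every library of the series. The 3 lines held 59243669 to 67314279 calls (1 call is 1 read over 1 CpG) with a median of 26 to 30 reads per CpG, the 4 lines 60172481 to 80637128 calls with a median of 27 to 36, and the parental library 82944286 calls with a median of 37. All MEF-1 clonal lines had low coverage of chromosome 12 (0.526 to 0.565) and high coverage of chromosome 19 (1.37 to 1.52), neither of which was in the comparison. Among the 16 chromosomes that were, the mean coverage of the sets differed most on chromosome 15 (1.15 in the 3 lines and 1.05 in the 4 lines), and single lines stood apart, such as line 7 on chromosome 5 (1.35) and line 5 on chromosome 15 (1.29). Of 9 fibroblast markers used to check the label, 2 had 5 or more measured CpGs in their promoters, Vim (0.823 to 2.40% methylated in the 8 libraries) and Thy1 (89.8 to 99.7%). A wider list of fibroblast identity genes is described with the other gene lists. Promoters of the epithelial markers Epcam and Cdh1 had 16.1 to 26.6% and 18.2 to 40.2%, those of the endothelial markers Pecam1 and Tie1 79.1 to 87.8% and 59.9 to 74.8%, and those of the blood markers Ptprc and Spi1 51.0 to 79.8% and 67.8 to 79.8%.

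**Figure D1:**
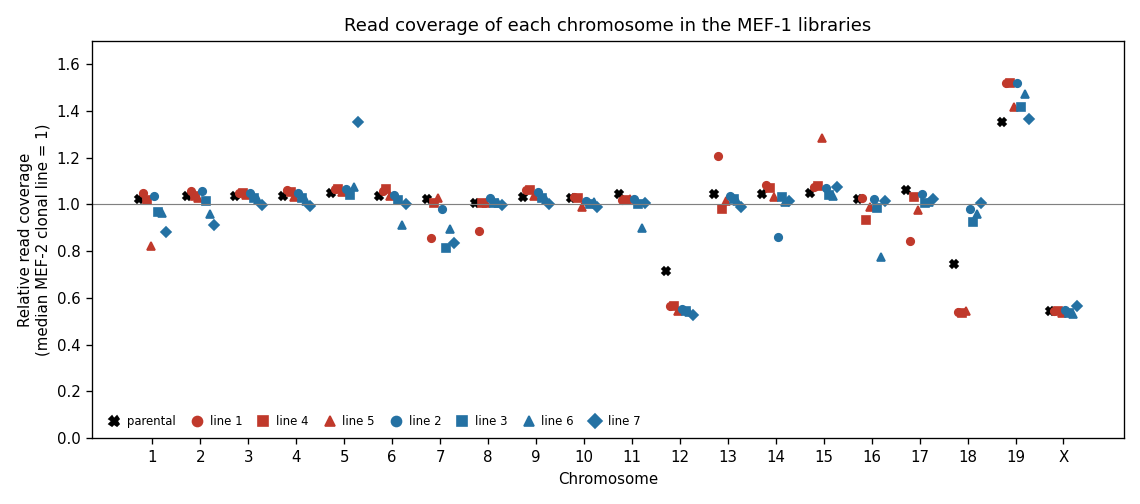
Relative read coverage (y axis, 1 is the median MEF-2 clonal line) of each chromosome (x axis) in the 8 MEF-1 libraries, with the 3 lines in red, the 4 lines in blue and the parental library in black. Chromosome 18 separates the sets, with 0.535 to 0.543 in red and 0.925 to 1.00 in blue, and the parental library lies between at 0.744. Chromosome X is scaled to MEF-2 lines from a female embryo, whereas MEF-1 came from a male embryo.

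Over all CpGs, the 3 lines were closer to each other than any other choice of 3 MEF-1 lines. Distance is the root of the mean squared difference in level between 2 libraries, in percentage points, after the part due to read sampling was subtracted. It was 8.86 points between lines 1 and 4, 9.41 between lines 1 and 5, and 8.80 between lines 4 and 5. Pairs of the 4 lines lay 11.3 to 14.4 points apart, and the 12 pairs with 1 line from each set 12.7 to 13.9. The mean distance within the 3 lines was 9.02 points, the lowest of the 35 choices of 3 of the 7 lines (exact test over these choices, one-sided p = 0.0286, the smallest they can give). The next lowest choice, lines 4, 5 and 6, had 11.5. Adjusted over the 6 measures of the lines that were tested, p was 0.0571 for this exact test.

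The 4 lines did not form a set of the same kind. Lines 2, 3 and 7 were 11.9 (lines 2 and 3), 12.1 (lines 2 and 7) and 11.3 (lines 3 and 7) points apart. Line 6 was 14.1 to 14.4 points from lines 2, 3 and 7 and 12.7 to 13.2 points from the 3 lines. By this measure it was nearer to the 3 lines than to the lines with which its chromosome 18 coverage groups it. Its departures from the parental library, given below, were shared more with lines 2, 3 and 7. The mean squared difference between a pair of the 8 libraries was at least 2.37 times what read sampling alone gives (parental library and line 4), and at least 2.51 times within the 3 lines.

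**Figure D2:**
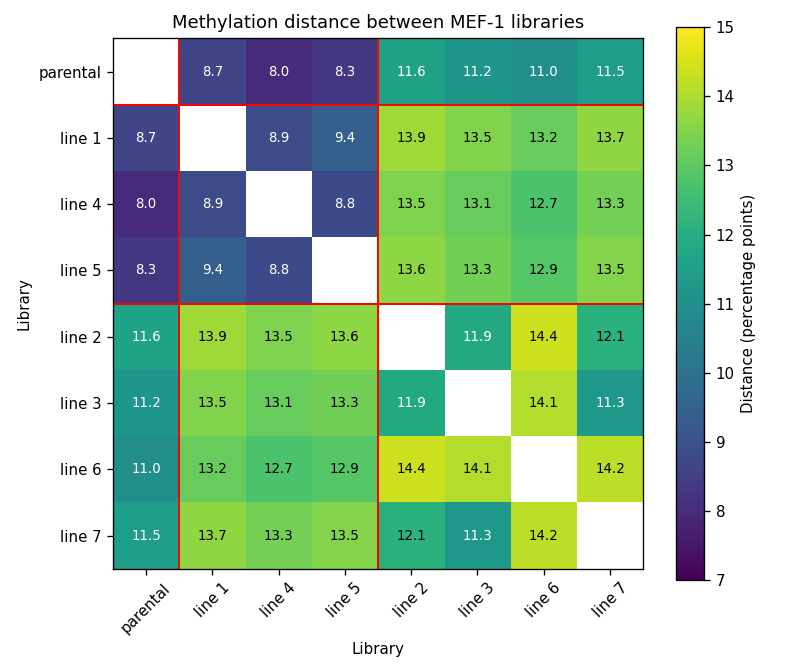
Methylation distance in percentage points between each pair of MEF-1 libraries, with red lines separating the parental library, lines 1, 4 and 5, and lines 2, 3, 6 and 7 on both axes. The block of lines 1, 4 and 5 holds 8.80 to 9.41 points and their distances to the parental library 8.00 to 8.68, while the row of line 6 reaches 14.4.

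The 3 lines were also nearer to the culture they came from. Lines 1, 4 and 5 were 8.68, 8.00 and 8.29 points from the MEF-1 parental library, and lines 2, 3, 6 and 7 were 11.6, 11.2, 10.95 and 11.5 points from it, with no overlap. The difference between the set means was 2.99 points lower in the 3 lines (exact permutation test, two-sided p = 0.0571, which is as low as 3 against 4 lines can reach). To the MEF-2 parental library, from the sibling embryo, the distances were 21.04 to 21.44 points in the 3 lines and 21.45 to 21.58 in the 4 lines. The sets did not overlap there either, but by a small margin. On the line that joins the set means, where 0 is the mean of the 4 lines and 1 the mean of the 3 lines, the parental library lay at 0.626, with 0.591 to 0.653 over the 16 chromosomes.

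What the 3 lines shared could be read from the way they departed from the parental library. Across the 1203687 CpGs, the departures of 2 lines from the parental level correlated at 0.438 for lines 1 and 4, 0.386 for lines 1 and 5 and 0.418 for lines 4 and 5. Between a line of the 3 and a line of the 4 this was 0.0887 to 0.123. Lines 2, 3 and 7 also shared departures among themselves (0.449 to 0.507) and less so with line 6 (0.188 to 0.200). Between line 6 and the 3 lines the value was 0.117 to 0.123, the reverse of its order by distance. All these values share the parental library, whose read sampling was subtracted, and neighbouring CpGs are not independent, so they are a description and were not tested. The p-values of this report make no allowance for departures shared between lines.

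The 3 lines had the shorter mean distance on each of the 16 chromosomes. The mean distance within the 4 lines was 1.22 times (chromosome 17) to 1.52 times (chromosome 6) that within the 3 lines on the 16 chromosomes. On 15 of the 16, the farthest pair of the 3 lines was closer than the closest pair of the 4 lines. Chromosome 17 was the exception, with 11.5 against 10.9 points, and there line 1 had a relative coverage of 0.843 against 1.03 in line 4 and 0.975 in line 5. Line 5 on chromosome 1 (0.823) and line 1 on chromosomes 7 (0.856) and 8 (0.885) also had low coverage. There the farthest pair of the 3 lines was still closer (10.1 against 11.6, 10.1 against 11.2 and 9.90 against 11.2 points). Together with chromosome 17, however, these chromosomes had the longest mean distances within the 3 lines (9.47 to 10.3 points). All other chromosomes had at most 9.06 points. The part of coverage in this was not tested. In promoters, the 1000 bp before a transcript start (overlapping windows of a gene joined), the mean distance was 6.70 points within the 3 lines and 9.35 within the 4 lines. Intergenic CpGs had the widest spread of the 5 locations, with 10.4 and 15.03 points.

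The sets also differed in how often such a parental level went with an end of the scale in a line. Among the 104290 CpGs with 40 to 60% in the parental library, 2.06, 1.49 and 1.55% were at 10% or less in lines 1, 4 and 5. The same share was 6.38, 5.72, 5.31 and 5.59% in lines 2, 3, 6 and 7. At 90% or more there were 2.22, 1.65 and 2.02% in lines 1, 4 and 5, against 6.79, 6.49, 5.90 and 6.76%. Together such CpGs made up 3.67% ± 0.576 (SD, n = 3) in the 3 lines and 12.2% ± 0.805 (SD, n = 4) in the 4 lines (exact permutation test, two-sided p = 0.0571). This share was not among the measures planned for the lines. With every CpG of every line thinned to 10 reads, the 3 lines had 9.97 to 11.2% and the 4 lines 17.2 to 18.6%.

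CpGs at opposite ends of the scale in 2 libraries were rarer still. Lines 1, 4 and 5 had 7, 1 and 5 CpGs at 10% or less where the parental library was at 90% or more, or the reverse, while lines 2, 3, 6 and 7 had 229, 197, 148 and 223. Within the 3 lines the pairs had 18 (lines 1 and 4), 29 (lines 1 and 5) and 12 (lines 4 and 5) such CpGs. The pairs of the 4 lines had 369 to 1043, and the pairs between the sets 457 to 863. Among the 135789 CpGs with 60 to 90% in the parental library, a level of 10% or less was reached at 0.218, 0.105 and 0.122% in lines 1, 4 and 5 and at 0.915 to 1.33% in the 4 lines.

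A level near 0, 50 or 100% (0 to 10, 40 to 60 or 90 to 100%), which a clonal line that kept its founder's state would show, was less frequent in the 3 lines. At CpGs with 10 to 90% in the parental library it was found at 57.3, 57.2 and 57.4% in lines 1, 4 and 5 and at 66.0, 64.2, 63.4 and 61.9% in lines 2, 3, 6 and 7. The sets did not overlap, and the SD was 0.0682 points over the 3 lines and 1.69 points over the 4 lines. The share in the 3 lines was 6.57 points lower (two-sided exact permutation test, p = 0.0571), and 3.26 points lower when each CpG was thinned to 10 reads. The windows assume 2 copies of each CpG, whereas relative coverage was far from 1 on some chromosomes of single lines. Examples are line 7 on chromosome 5 (1.35), line 5 on chromosome 15 (1.29) and line 6 on chromosome 16 (0.776). This share was not recomputed on chromosomes of even coverage alone. Levels of 10 to 90% made up 26.7, 27.2 and 27.1% of all CpGs in lines 1, 4 and 5, 24.9, 25.4, 25.6 and 26.4% in lines 2, 3, 6 and 7, and 31.2% in the parental library. After thinning to 10 reads the sets overlapped in this last measure (31.5 to 32.4% and 30.9 to 31.8%).

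**Figure D3:**
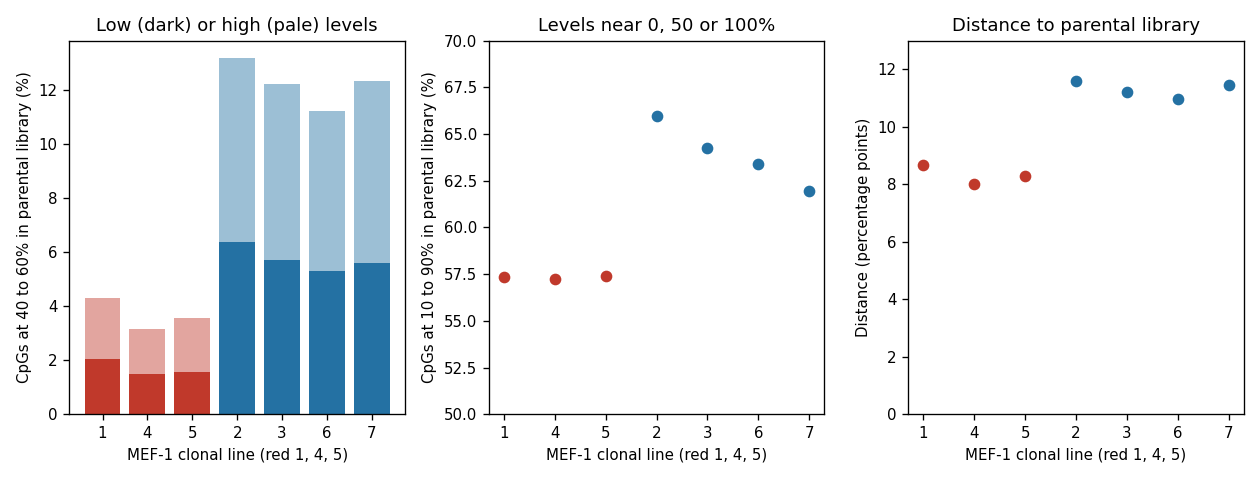
For each MEF-1 clonal line (x axis, red for lines 1, 4 and 5 and blue for lines 2, 3, 6 and 7), the left panel shows the percentage of CpGs with 40 to 60% in the parental library that were at 0 to 10% (dark) or 90 to 100% (pale), the middle panel the percentage of CpGs with 10 to 90% in the parental library that were at 0 to 10, 40 to 60 or 90 to 100% (axis from 50 to 70%), and the right panel the distance to the parental library in percentage points. No panel has overlap between red and blue, and the red bars reach 3.15 to 4.29% where the blue bars reach 11.2 to 13.2%.

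The mean methylation level was slightly higher in the 3 lines. It was 44.3, 44.3 and 44.5% in lines 1, 4 and 5 and 43.6, 43.8, 43.6 and 44.0% in lines 2, 3, 6 and 7, with 44.0% in the parental library. The difference of 0.612 points came with no overlap between the sets (two-sided exact permutation test, p = 0.0571). At CpGs with 90% or more in the parental library the mean was 97.4, 97.3 and 97.3% in the 3 lines and 96.2 to 96.5% in the 4 lines, against 97.4% in the parental library itself.

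Single CpGs, promoters and gene bodies were then compared between the sets with a quasi-binomial model of the methylated and unmethylated reads, in which each feature has its own dispersion. No CpG of the 1203687 passed an adjusted p of 0.05 in this quasi-binomial test, and 60744 (5.05%) had an unadjusted p under 0.05. No promoter of 10522 passed, with 819 (7.78%) at an unadjusted p under 0.05, and no gene body of 13927 passed, with 1328 (9.54%). Of those gene bodies 1004 were higher and 324 lower in the 3 lines. The model rests on 5 residual degrees of freedom, and on simulated counts it recovered the size of known differences but, after adjustment, called only very large ones. These counts of 0 therefore do not show that levels were alike. limma on arcsine square root levels shares the spread between features and does not weigh a level by its reads. For CpGs the sharing was slight, adding 0.927 to the 5 residual degrees of freedom. It called 10701 CpGs, 9 promoters and 18 gene bodies. The quasi-binomial model with its dispersion shrunk in the same way, added after these counts were seen, called 0 CpGs (84176 with an unadjusted p under 0.05), 17 promoters and 37 gene bodies.

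6 promoters and 8 gene bodies passed both limma and the model with shrunken dispersion, and none of them passed the first model (adjusted p of 0.353 to 0.391 in the quasi-binomial test). They were picked after the results of both alternatives had been seen. Of these promoters 3 were higher and 3 lower in the 3 lines, and of the gene bodies 7 were higher and 1 lower.

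Mkrn3, an imprinted gene of a RING finger protein that is expressed from the paternal copy, had a promoter (chromosome 7, 62420140 to 62421139, 22 CpGs) with 21.6, 20.9 and 23.2% in lines 1, 4 and 5. Lines 2, 3, 6 and 7 had 34.1, 40.1, 36.2 and 37.6%, and the parental library 30.7%. The 3 lines were 15.1 points lower (limma adjusted p = 0.0392). Within the promoter, the printed run of 6 CpGs was almost free of methylation in the 3 lines, with 1.43, 1.45 and 4.30%. Lines 2, 3, 6 and 7 had 39.4, 69.0, 46.3 and 69.3% there and the parental library 35.2%. The run was 53.6 points lower in the 3 lines. It held 254 to 430 reads per library, and the promoter 1044 to 1740. Much of the difference of the promoter therefore lay in this run and was not spread over its 22 CpGs. Relative coverage of chromosome 7 was 0.856, 1.01 and 1.03 in lines 1, 4 and 5 and 0.979, 0.814, 0.897 and 0.837 in lines 2, 3, 6 and 7. Its part in the result was not tested.

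Grin2b encodes a subunit of the NMDA glutamate receptor of neurons. Its promoter (chromosome 6, 136171890 to 136172889, 6 CpGs) had 15.9, 23.6 and 16.8% in lines 1, 4 and 5 and 1.69 to 4.07% in the 4 lines, with 4.55% in the parental library (limma adjusted p = 0.0257). Here the parental library sat beside the 4 lines. Corin, a membrane protease that processes natriuretic peptides, showed the reverse, with 2.87, 3.66 and 4.01% in lines 1, 4 and 5, 14.5 to 21.7% in the 4 lines and 8.87% in the parental library. Taar2, an olfactory receptor for trace amines, had 67.2, 63.2 and 59.4% in lines 1, 4 and 5, 37.1 to 41.4% in the 4 lines and 55.7% in the parental library. Msh4, which acts in meiotic recombination, had 89.0, 88.0 and 89.0% in lines 1, 4 and 5, close to the parental 88.8%, and 96.2 to 96.6% in the 4 lines. Dph3, a gene of diphthamide synthesis with a CpG-rich promoter of 41 measured CpGs, had 8.07, 10.3 and 7.85% in lines 1, 4 and 5 and 1.497 to 2.26% in the 4 lines. With a window of 500 bp on each side of the start, the difference (3 lines minus 4 lines) of Dph3 shrank from 6.80 to 0.255 points, that of Corin from -13.6 to -6.64 and that of Msh4 from -7.82 to -3.09.

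Nr2f2, an orphan nuclear receptor that acts as a transcription factor in mesenchymal and vascular development, was the gene body with the most measured CpGs in this group (chromosome 7, 70351944 to 70366735, 79 CpGs). It had 55.7, 57.9 and 55.6% in lines 1, 4 and 5, 45.7, 42.6, 43.8 and 45.1% in lines 2, 3, 6 and 7 and 53.3% in the parental library (limma adjusted p = 0.0383). Itpripl2, on the same chromosome (66 CpGs), had 40.1, 36.0 and 40.2% in lines 1, 4 and 5, 17.9 to 24.6% in the 4 lines and 31.5% in the parental library. The coverage of chromosome 7 given for Mkrn3 holds for Nr2f2 and Itpripl2 too, and its part was not tested. Pja2, a ubiquitin ligase gene with 15 measured CpGs, had 68.1, 68.7 and 63.5% in lines 1, 4 and 5 and 48.2 to 53.4% in the 4 lines. The parental library had 51.6% and thus resembled the 4 lines. Cd36, the fatty acid translocase, was the gene body that was lower. Only 8 CpGs were measured in it (chromosome 5, 17781690 to 17888801), so its level is not that of the whole gene. It had 50.5, 47.4 and 52.4% in lines 1, 4 and 5 and 65.7 to 72.1% in the 4 lines. The parental library (51.3%) resembled the 3 lines. Dhx15, an RNA helicase of the spliceosome (22 CpGs), had low levels of 11.4, 15.6 and 13.7% in lines 1, 4 and 5. The 4 lines had 4.89 to 5.88% and the parental library 6.64%. Tekt3 (16 CpGs), Mettl7a3 (22 CpGs) and 4930503E14Rik (6 CpGs) were 13.4, 12.96 and 24.7 points higher in the 3 lines.

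**Figure D4:**
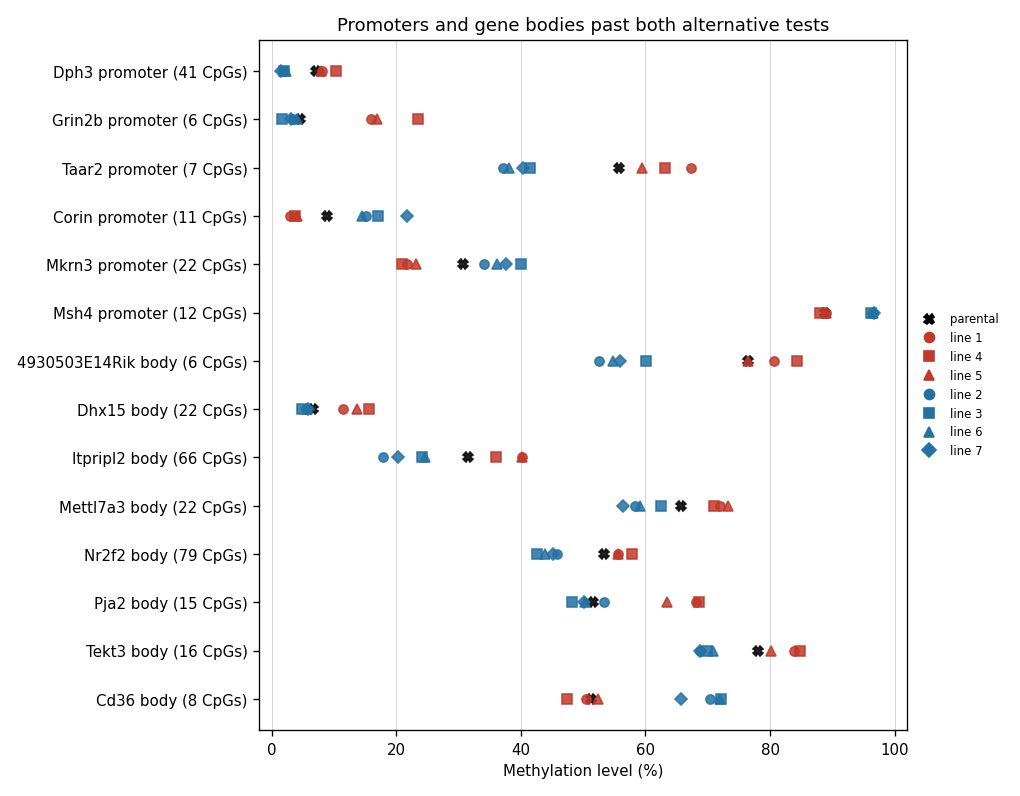
Methylation level (x axis, percent) of the 6 promoters and 8 gene bodies that passed both limma and the quasi-binomial model with shrunken dispersion, with lines 1, 4 and 5 in red, lines 2, 3, 6 and 7 in blue and the parental library in black. Red and blue do not overlap in any row, as at every promoter and gene body that either test called, so this goes with the choice of rows. The parental library lies among the red points at Cd36, Msh4 and 4930503E14Rik and among the blue points at Pja2.

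The largest differences were picked by size among features whose sets did not overlap. Genes named Gm plus digits or ending in Rik, such as 4930503E14Rik above, were left out. This rule was taken up after the first model had called no feature, and the differences are given without a test. Sets that did not overlap were found at 1121 promoters (10.7%), of which 645 (6.13%) were higher and 476 (4.52%) lower in the 3 lines, and at 122 (1.16%) with at least 10 points between the set means. Bicral, a subunit of a chromatin remodelling complex, had 38.2, 39.5 and 39.3% in lines 1, 4 and 5 and 50.2 to 76.5% in the 4 lines, with line 6 the lowest of these and the parental library (53.8%) next to it. Myocd, a coactivator of smooth muscle genes, had 35.1, 46.2 and 38.7% in lines 1, 4 and 5 and 50.0 to 81.3% in the 4 lines. Lhx6, a homeobox factor of interneurons with 20 CpGs, had 14.0, 18.6 and 23.5% in lines 1, 4 and 5 and 25.1 to 51.8% in the 4 lines. Nppb, the gene of B-type natriuretic peptide, had 10.1, 7.44 and 10.3% in lines 1, 4 and 5 and 20.8 to 30.0% in the 4 lines, and Tph2, the enzyme of neuronal serotonin synthesis, had 2.94 to 4.49% and 7.64 to 34.5%.

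Tmem235, Trak1 and Hp1bp3 were also among the 8 that were lowest in the 3 lines relative to the 4 lines (20.5 to 26.7 points). At Trak1 line 4 (47.5%) stood apart from lines 1 and 5 (23.9 and 26.8%) and was close to line 3 (49.6%). Besides Taar2, the 8 with the largest difference in the other direction were Mtfp1, Fxyd2, Armt1, Traf1, Kcnt1, Adh1 and Tnk1 (17.2 to 19.08 points). Adh1, an alcohol dehydrogenase, had 50.7, 47.1 and 45.9% in lines 1, 4 and 5, close to 45.7% in the parental library, and 27.6 to 39.0% in the 4 lines. Several of these differences rested on the window: from 500 bp before to 500 bp after the start, the difference (3 lines minus 4 lines) of Armt1 was -0.480 points, that of Trak1 0.585 and that of Hp1bp3 -0.834, and those of Mtfp1, Kcnt1, Tnk1, Tmem235 and Tph2 were 4.74, 2.43, 3.73, -8.26 and -5.39 points. That of Fxyd2 shrank to 10.6 points. At CpGs with at least 20 reads the difference of Tnk1 turned to 4.11 points lower, and those of Mtfp1, Fxyd2 and Armt1 grew to 34.1, 30.5 and 35.5 points.

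Gene bodies with sets that did not overlap numbered 1620 (11.6%), with 1168 (8.39%) higher and 452 (3.25%) lower in the 3 lines. Clu, the secreted chaperone clusterin (6 measured CpGs), had 70.7, 81.5 and 68.1% in lines 1, 4 and 5, 33.1 to 55.7% in the 4 lines and 58.1% in the parental library. Sftpc, a surfactant protein of the lung (7 CpGs), Neurl4 (5 CpGs) and Tbc1d7 (6 CpGs) were 19.6 to 19.96 points higher in the 3 lines. Spata4 (10 CpGs), Gstt4 (12 CpGs) and Slfn2 (7 CpGs) were 15.5 to 17.9 points lower. With so few CpGs, these levels are not those of whole genes. At CpGs with at least 20 reads the difference of Sftpc turned to 3.58 points lower in the 3 lines, that of Clu grew to 53.2 points and that of Slfn2 shrank to 9.35 points lower.

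At single CpGs, 74905 (6.22%) had sets that did not overlap, of which 46230 (3.84% of all CpGs) were higher and 28675 (2.38%) lower in the 3 lines. At 22819 CpGs without overlap (1.9% of all CpGs) the set means were at least 30 points apart, with 14511 (1.21%) higher and 8308 (0.69%) lower in the 3 lines. They were most frequent where the parental library had 60 to 90% (6.39% of those CpGs) and least frequent where it was under 10% (0.199%). By location they made up 2.58% of intergenic, 2.03% of intronic and 0.886% of promoter CpGs, and by chromosome 1.74% (chromosome 5) to 2.10% (chromosome 16). The parental level lay between the sets at 44.3% of the 22819 CpGs, within the range of the 4 lines at 27.6% and within the range of the 3 lines at 25.0%.

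A complete switch, with 90% or more in all 3 lines and 10% or less in all 4 lines, was seen at 1 CpG, and the reverse at none. This CpG, chr11:51290508-51290509, lies in an intron of Col23a1, a collagen gene, 588 bp from its start, and had 100, 97.4 and 97.2% in lines 1, 4 and 5, 5.88, 0, 3.08 and 8.33% in lines 2, 3, 6 and 7 and 44.6% in the parental library, with 31 to 65 reads. In the promoter of 2310039H08Rik (chr17:46771962-46771963) lines 1, 4 and 5 had 7.14, 0 and 0%, close to 3.57% in the parental library, whereas lines 2, 3, 6 and 7 had 93.3, 100, 88.9 and 100%, with 13 to 28 reads.

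With at least 20 points between the set means there were 37255 CpGs without overlap (3.1%), and 21 runs held at least 5 of them in the same direction, with at most 300 bp and 1 other CpG between neighbours. These runs held 125 of the 37255 CpGs, so nearly all such CpGs lay outside any run. The 3 lines were higher in 18 runs and lower in 3. The run in Nr2f2 printed above held the most CpGs that met the rule (13), with 81.4, 79.6 and 72.4% in lines 1, 4 and 5, 51.3, 45.4, 31.6 and 40.1% in lines 2, 3, 6 and 7 and 57.8% in the parental library. The run in Josd1, a deubiquitinase gene, had 68.4, 72.9 and 69.4% in lines 1, 4 and 5 and 29.0, 43.4, 21.1 and 25.2% in lines 2, 3, 6 and 7, and again the parental library lay between (57.9%). The run near Tfpi, the inhibitor of the tissue factor pathway of coagulation, had 6.64, 9.59 and 15.8% in lines 1, 4 and 5, with 14.5% in the parental library, and 56.2, 39.2, 56.3 and 63.4% in lines 2, 3, 6 and 7. The third run that was lower in the 3 lines lay between genes nearest to Rnf144b (14.8 to 23.9% against 48.1 to 67.2%).

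Further runs higher in the 3 lines lay in the promoter and an intron of Ankrd28, a subunit of protein phosphatase 6 (38.9 to 42.6% in the 3 lines, 5.18 to 15.4% in the 4 lines), in a coding exon of Itpripl2 (69.7 to 87.0% and 43.9 to 56.6%) and in an intron of Peg10, an imprinted gene derived from a retrotransposon. At Peg10 the 3 lines did not behave alike, with 52.1 and 45.3% in lines 1 and 5, 79.3% in line 4, 29.2 to 39.9% in the 4 lines and 48.2% in the parental library. Runs of 5 or 6 CpGs were found in Sgk1, a serum-inducible kinase (36.6 to 44.4% and 4.67 to 17.5%), and in the introns of Runx2 and Gata2, transcription factors of bone and of blood (65.2 to 76.1% against 18.1 to 35.6%, and 72.8 to 80.5% against 32.6 to 50.9%). The parental level lay between the sets in 11 of the 21 runs, within the range of the 3 lines in 9 and within that of the 4 lines in 1, the run nearest to Tmem132c (14.9%, against 36.0 to 47.7% in the 3 lines). Coverage of a run, scaled to the library, was 0.772 to 1.18 times as high in the 3 lines as in the 4 lines, and its part in these results was not tested. The runs at Nr2f2, Itpripl2, Mkrn3, Prmt3, Mex3b and Nsmce1 all lay on chromosome 7, which held 6.37% of the CpGs. Relative coverage of that chromosome was low in line 1 (0.856) and in lines 3, 6 and 7 (0.814, 0.897 and 0.837). Single CpGs without overlap and at least 30 points apart made up 1.88% of its CpGs, against 1.90% of all CpGs.

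**Figure D5:**
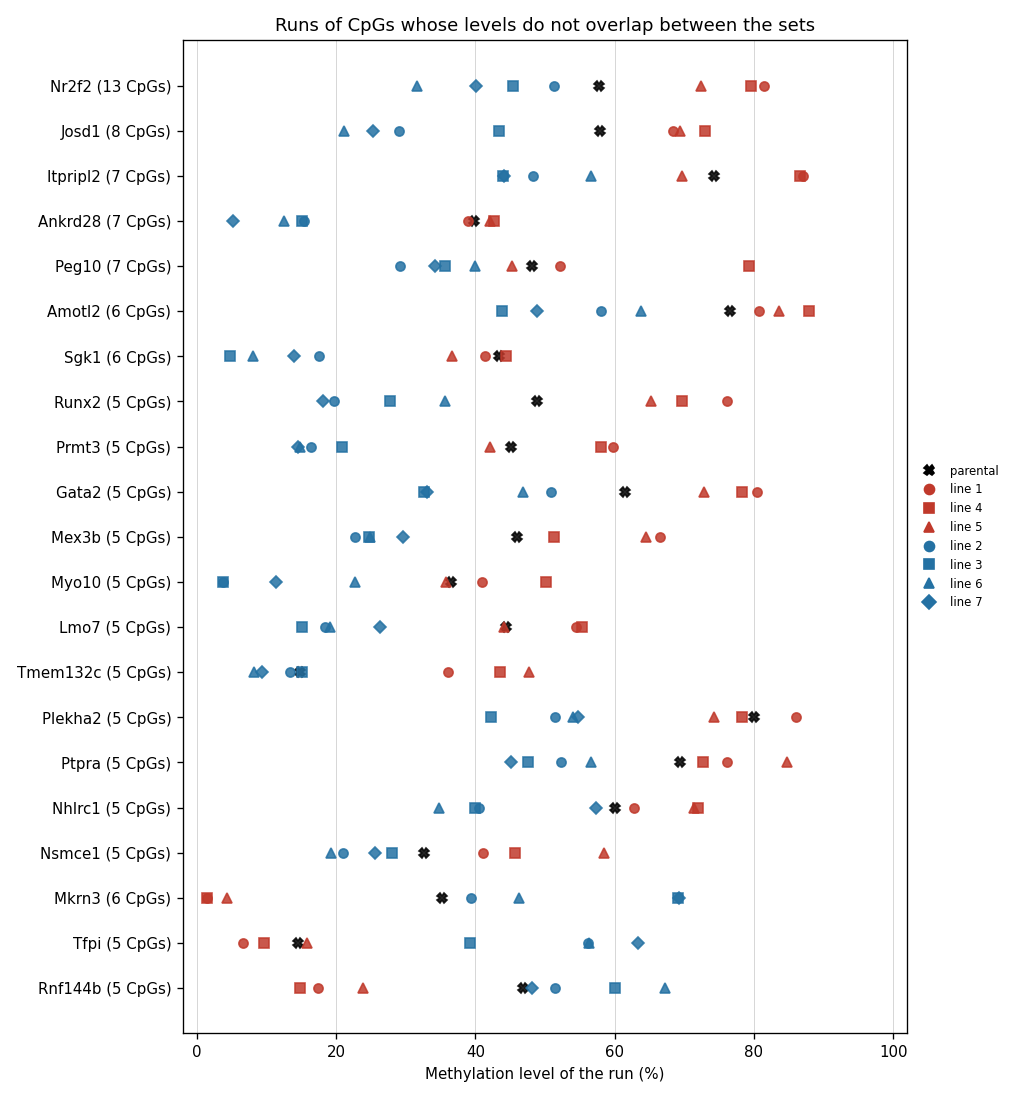
Methylation level (x axis, percent) of the 21 runs of CpGs, named by the nearest gene, with the number of CpGs that met the rule. Lines 1, 4 and 5 (red) and lines 2, 3, 6 and 7 (blue) do not overlap because the runs were chosen so, and the parental library (black) lies between them or among the red points in all but the run nearest to Tmem132c.

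Gene lists were read at promoters with at least 5 measured CpGs. None of the members of the 9 lists passed the quasi-binomial test, and counts without overlap are given beside 10.7% of all promoters and a median difference of 0.0601 points over all of them. Of 32 Hox genes, which give cells their place along the body axis, 7 did not overlap, 3 higher and 4 lower in the 3 lines, with a median difference of 0.591 points. Hoxb7 (34 CpGs) had 8.85, 10.4 and 5.98% in lines 1, 4 and 5 and 17.6 to 28.4% in the 4 lines, with 16.2% in the parental library, and the model with shrunken dispersion gave an adjusted p of 0.0313 but limma one of 0.103 and the quasi-binomial test without shrinkage one of 0.522. Hoxc9 (46 CpGs) was the other way round, with 13.3, 15.3 and 11.6% against 7.30 to 9.09%. Of 43 other transcription factors of position, 8 did not overlap and all were higher in the 3 lines. Hand1, a factor of heart and limb mesenchyme, had 70.7, 69.4 and 64.0% against 59.0 to 62.6%, and 60.1% in the parental library.

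Of 35 imprinted genes, 5 did not overlap and all 5 were lower in the 3 lines, with a median difference over the list of 0.571 points lower. Apart from Mkrn3 these were Kcnk9, H13, Cd81 and Phlda2, which were 4.04 to 6.55 points lower. Of 23 genes of the DNA methylation machinery, 3 did not overlap, Tet1 and Tdg higher and Zfp57 lower in the 3 lines, with a median difference over the list of -0.898 points. Tet1, an enzyme that oxidises methylated cytosine, had 56.6, 62.9 and 56.4% in lines 1, 4 and 5, 44.6 to 49.9% in the 4 lines and 60.5% in the parental library. Of 26 germline genes 3 did not overlap (2 higher, 1 lower), and of 37 genes of senescence and cell cycle control 4 (3 higher, 1 lower). Of 47 genes of Wnt, BMP and TGF-beta signalling 3 did not overlap, among them Frzb, a secreted Wnt antagonist (9.24, 9.95 and 4.32% against 12.7 to 21.7%). The fibroblast identity list had 1 of 10 genes without overlap, Snai2, and the list of other cell types 2 of 11, Sox10 and Tie1.

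The 3 lines also differed from each other. Of the 10522 promoters, 7 were at least 20 points higher or lower in line 1 than in both others, 10 in line 4 and 6 in line 5. The same count is not given for the 4 lines. Wdr48, a cofactor of deubiquitinases, had 63.0 and 65.2% in lines 1 and 4 and 34.1% in line 5 (5 CpGs, 75 to 126 reads). Marveld3, a tight junction protein gene, had 77.3% in line 1 and 49.5 and 49.1% in lines 4 and 5 (6 CpGs, 75 to 121 reads). The promoter of Inpp5f, a phosphoinositide phosphatase gene (28 CpGs), had 31.1% in line 4 and 59.5 and 57.3% in lines 1 and 5, while the 4 lines had 46.7 to 57.7% and the parental library 48.2%. Line 4 had the shortest distance to the parental library, and line 1 the longest of the 3.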

How the data were processed

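Target capture bisulfite sequencing of 16 libraries was used, of which the 8 MEF-1 libraries enter the comparisons. As the study's methods and the labels give it, the authors used Trim Galore (0.6.0 in the submitters' processing notes) for trimming and Bismark for alignment to mm10, kept only well-mapped reads and summed the 2 strands of each CpG. Whether PCR duplicates were removed is not given in the sources used here, so p-values may rest on repeated molecules. The deposited values are counts of methylated and unmethylated reads per CpG, with no normalization. The series table is limited to CpGs covered by 10 reads or more in each of the 16 libraries and lacks chromosomes 12, 18, 19, X and Y. Of its 1203687 CpGs, 113 were not a CpG of the GRCm38 reference. The deposited percent and fraction columns (methylated percentage, fidelity score, neighbour similarity score) and the authors' number of nearby CpGs were not used. Coverage by chromosome came from the deposited counts of each library.

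A level is the percentage of reads called methylated. Sets were compared by a quasi-binomial logistic model (F-test, dispersion not below 1, 5 residual degrees of freedom) with Benjamini-Hochberg adjustment, for CpGs, promoters (1000 bp before a transcript start of a GENCODE M21 protein-coding gene, overlapping windows of a gene joined, at least 5 CpGs, per gene the window with most CpGs) and gene bodies (at least 5 CpGs outside promoters). limma (3.58.1, R 4.3.3) on arcsine square root levels was the alternative test. Values per line were compared with exact permutation tests (scipy 1.17.1). Scripts were tested on simulated data. The first criterion set for the quasi-binomial model, that it recover most large simulated differences after adjustment, was not met. The criterion was then replaced by the size of the differences, the unadjusted p and the false calls, which were met, and the model was kept as designed, so that it has little power for single features.

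The lines, gene lists and tests were chosen with earlier results of these data known. Named genes were to be the called promoters (8 per direction), gene bodies (4) and runs of called CpGs (5) with the largest differences. As no feature was called, the same numbers were named among features whose sets did not overlap. Promoters and gene bodies of genes named Gm plus digits or ending in Rik were left out of this naming. That rule, the thresholds of 10, 20 and 30 points (more than 1 was looked at), the model with shrunken dispersion, 1-kb tiles, the 6 chromosomes with mean coverage within 0.1 of 1 and the features that passed both alternative tests were chosen after seeing the data. The position of the parental library was to be computed over called CpGs and was computed over all CpGs instead. The position of each line left out, designed over called CpGs too, was not computed. Hoxb7, Hoxc9, Tet1 and the other list members named, the single CpGs and the promoters at which the 3 lines differ were picked after their values were seen. So were the runs in Sgk1, Runx2 and Gata2, the run near Tmem132c, and the further runs of chromosome 7.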

Additional observations from a re-analysis of the deposited data

Results flagged for a closer look

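Extreme samples were looked for in 54 groups of values: the 5 measures of the lines, over all 7 clonal lines and over the 4 lines alone, and the named promoters, gene bodies and runs over the 4 lines. A lowest or highest sample counted as far from the others by Dixon's 95% limit on its gap over the range, a limit that chance passes in about 1 of 20 groups. It was passed in 2 groups. At the Fxyd2 promoter line 7 had 40.4%, below 48.1 to 49.4% in lines 2, 3 and 6. At the Adh1 promoter line 6 had 39.0%, above 27.6 to 28.3% in lines 2, 3 and 7, and so was the nearest of the 4 lines to the 3 lines (45.9 to 50.7%).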

How the results depend on the processing

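No paired analysis was possible because the lines compared share no replicate numbers. A setting that leaves out chromosomes whose coverage differs between the sets by more than 0.1 was not run, since 0 of the 16 chromosomes differed by that much. In its place, the 6 chromosomes (2, 3, 4, 6, 9 and 10) whose mean coverage was within 0.1 of 1 in all MEF-1 libraries were used alone, although stretches of chromosomes 2 and 6 were uneven in line 6 (down to 0.759 and 0.758 in bins of 5 Mb). The alternatives for the position of the parental library that need called CpGs (a stricter adjusted p, the median over called CpGs) gave no value. The count of called CpGs stayed at 0 in the quasi-binomial test without any 1 line (40985 to 64426 CpGs with an unadjusted p under 0.05), with at least 20 reads, after thinning to 10 reads, on the 6 chromosomes and in 81994 tiles of 1 kb (8275, or 10.1%, with an unadjusted p under 0.05). limma changed it to 10701, all of them with sets that did not overlap and 2620 with under 5 points between the set means. For promoters limma gave 9 and shrunken dispersion 17, and for gene bodies 18 and 37, while all other settings gave 0. The cause was not tested.

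The distance within the 3 lines kept its p of 0.0286 in the 4 exact tests under other measures and CpG sets, a p that cannot go lower. It was 14.2 points (20.2 within the 4 lines) at CpGs with 10 to 90% in the parental library, and 6.68 (7.92) as a mean absolute difference without correction for read sampling. Without 1 line it was 8.80 to 9.41 points and p was 0.05 to 0.0667 in the exact test, the smallest that 6 lines allow. Differences in the other measures kept their direction in every setting run. That in distance to the parental library was -0.957 points as an uncorrected mean absolute difference (-2.99 as reported), and that in levels near 0, 50 or 100% was -3.66 points where levels up to 20%, from 30 to 70% or from 80% were counted as near (-6.57 as reported). All reads pooled gave a difference in mean level of 0.453 points (exact p = 0.114), and thinning to 10 reads one of 0.660 points in the share of levels at 10 to 90% (exact p = 0.171, down from a difference of 1.44). The position of the parental library was 0.575 to 0.695 without 1 line, highest without line 6, and 0.628 on the 6 chromosomes.

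Each of the 36 named promoters and gene bodies was recomputed under other settings, although not every feature gave a value in every setting. Of the resulting values 270 stayed within the spread between lines, 25 moved further and 4 reversed. Most of these values came from leaving out 1 line, where the direction was fixed because the sets did not overlap. All that moved further or reversed came from another promoter window or read minimum. The reversed values were -0.480 points for Armt1 and 0.585 points for Trak1 with a window of 500 bp on each side of the start, and -4.11 points for the Tnk1 promoter and -3.58 points for the Sftpc gene body at CpGs with at least 20 reads. At 26 to 37 reads per CpG, the level of a single CpG is coarse, and differences between lines at single CpGs are known less well than those over many.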
